A study of Mus musculus with 10 samples.

Results

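The WGC cytosines of a mouse Smu fragment, 32 of its 243 analysed C:G positions, are described here across 3 genotypes of activated B cells. W stands for A or T. A position was taken when the strand that carries the C reads A or T at the place 2 before it and G just before it, and when the 4 bases are not the palindrome AGCT. These cytosines carry the core of the sequence that activation-induced deaminase (AID) prefers. Positions are named by the base of the reference strand and their number in the fragment, so that C216 is a C and G451 is a G whose paired cytosine is meant. Of the 32, 15 were C and 17 were G on the reference strand. The first base was A at 19 (AGC) and T at 13 (TGC), and the base after the cytosine was A at 9, C at 12, G at 4 and T at 7. All 7 cytosines followed by T were TGCT, because AGCT was left out. In 8 GC dinucleotides both cytosines were members, so 16 of the 32 share a dinucleotide with another.

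Smu is the switch region in front of the first heavy-chain constant gene, where AID starts class switch recombination and leaves point substitutions. The UNG-/- cells (4 libraries) lacked the uracil DNA glycosylase Ung, the UNG+/+ cells (4 libraries) had it, and the AID-/- cells (2 libraries) lacked the deaminase and served as the error background. All were spleen B cells stained with 5 µM CFSE and cultured for 4 days with 25 µg/ml LPS, 10 ng/ml IL4 and 20 ng/ml BAFF, and cells with 5 or more divisions were isolated. The fragment was amplified from their genomic DNA for 25 cycles, sheared and sequenced. The labels do not say that each library is a separate mouse, so p-values measure the spread between these libraries.

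AID removes the amino group of cytosine in single-stranded DNA, which leaves uracil. A polymerase reads uracil as thymine, so replication over it gives C to T. Ung excises uracil, and the abasic site left behind is either repaired or copied by translesion polymerases. Such copying can give C to G, for which Rev1 is known, or C to A.

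The following 15-base windows, read 5′ to 3′ on the strand that carries the cytosine, show the cytosines that the results below turn on, with the 4 bases WGCN in capitals. They come from the reference base column of the deposited tables. The first 5 had the highest C to T levels in UNG-/- cells:
C546: gcttgAGCCaaaatg
G529: agcttTGCTtacctc
C530: aggtaAGCAaagctg
C427: ttgagAGCCctagta
G215: atctaAGCActgtcc

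The next windows hold the other TGCT cytosines, the motif with the highest C to G and C to A levels in UNG+/+ cells (G529, above, is the seventh):
C216: gacagTGCTtagatc
G325: cgaccTGCTggcctc
C396: aagctTGCTgagcaa
G400: aatttTGCTcagcaa
G451: agctgTGCTttttag
C488: ctgagTGCTtctaaa

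The last windows show C401 and C452, at the ends of the range of C to T fold changes UNG-/- over UNG+/+, the weakly substituted G264, and the cytosines of a TGCA, G312 and C313:
C401: tgctgAGCAaaatta
C452: taaaaAGCAcagctg
G264: ccttcTGCGtatcca
G312: tcaacTGCAggtctc
C313: agaccTGCAgttgag

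A level below is the number of substituted reads per 10000 reads that passed the quality filter, named on the strand with the C, and a mean over positions gives each position the same weight. Coverage at the 32 positions lay between 3137 reads (C546, UNG+/+ replicate 1) and 745202 reads and was lowest toward the 3′ end, at G529, C530, G539 and C546. Total filtered base reads per library lay between 112909908 and 255310423. Over all positions used, the share of base reads that passed the filter was 97.9% to 98.3% in the UNG-/- and UNG+/+ libraries numbered 1 and 2. It was 98.7% to 99.0% in those numbered 3 and 4, so results are also given within these sets. At the 32 members the share was 96.8%, 96.8%, 98.5% and 97.5% in UNG-/- replicates 1 to 4. In UNG+/+ replicates 1 to 4 it was 98.1%, 98.1%, 98.7% and 98.7%. UNG-/- replicate 4 was thus below UNG+/+ replicates 1 and 2 there, so the member shares do not follow these sets. UNG-/- replicates 1, 2 and 4 carried a second base in up to 48.0%, 48.2% and 45.7% of reads at the 5 polymorphic positions that were left out, while UNG-/- replicate 3 had at most 0.153% there and the UNG+/+ libraries at most 0.256%.

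C to T was the main substitution at the WGC cytosines in the UNG-/- and UNG+/+ libraries, and its level differed between the 3 genotypes. The mean over the 32 positions was 60.3 ± 11.4 over the UNG-/- libraries and 22.3 ± 3.17 over the UNG+/+ libraries (SD, n = 4 each), against 2.73 and 3.14 in the AID-/- libraries. The single UNG-/- libraries had 66.5, 70.9, 58.8 and 44.9 and the UNG+/+ libraries 25.9, 24.0, 19.3 and 20.0. The lowest UNG-/- library was above the highest UNG+/+ library, and both were above the AID-/- libraries. The ratio of the UNG-/- mean to the UNG+/+ mean was 2.70.

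Against the AID-/- background, C to T was higher at 32 of 32 WGC cytosines in UNG-/- cells and at 32 of 32 in UNG+/+ cells (edgeR quasi-likelihood test over all C:G positions, Benjamini-Hochberg adjusted p below 0.05). Over all tested C:G positions the same test called 87.3% higher for UNG-/- and 64.8% for UNG+/+. The median log2 fold change over the members was 5.00 for UNG-/- over AID-/- and 3.40 for UNG+/+ over AID-/-, beside medians of 3.18 and 1.55 over all tested C:G positions. The 2 comparisons share the AID-/- libraries, in which C378, G487 and C488 have a different motif, as given below.

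UNG-/- over UNG+/+, C to T was called higher at 31 of 32 WGC cytosines, where 84.3% of all 236 tested C:G positions were called. The median log2 fold change over the members was 1.39, with a range of 0.45 to 2.33, and the median over all tested C:G positions was 1.47. At 30 of the 32 the 4 UNG-/- libraries all lay above the 4 UNG+/+ libraries, which held for 77.5% of all tested C:G positions. Most C:G positions in general were thus called as well, with a similar median fold change. Whether the members' counts differ from these shares was not tested. Within the libraries numbered 1 and 2 the test called 31 of 32, and within those numbered 3 and 4 it called 30 of 32. For these sets the share over all C:G positions is not given. The same holds for the other alternative settings below, except the fits with no filter. Counts there describe the members alone. For all substitutions together, 29 of 32 were called higher, beside 56.1% of all tested C:G positions. The 3 that were not called were G451, C452 and C488.

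The most substituted cytosine in UNG-/- cells was C546, an AGCC near the 3′ end of the fragment. Its C to T level was 219, 213, 164 and 131 in UNG-/- replicates 1 to 4, against 76.5, 53.9, 36.1 and 49.7 in UNG+/+ replicates 1 to 4 and 5.06 and 7.61 in AID-/- cells. It is also the least covered member, and the value of UNG+/+ replicate 1 rests on 24 of 3137 reads (95% Clopper-Pearson interval 49.1 to 114 per 10000, for counting error only). Reads are PCR products without molecular identifiers, so this interval and the limits given for counts of 0 cover counting error only.

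G529 and C530 form one GC dinucleotide and had the next highest C to T levels in UNG-/- cells. G529, a TGCT, had 166, 173, 142 and 115 in UNG-/- cells, against 31.1, 48.4, 35.9 and 38.7 in UNG+/+ cells and 1.30 and 0.85 in AID-/- cells. C530, an AGCA, had 138, 156, 123 and 118 in UNG-/- cells, against 77.8, 79.3, 59.6 and 52.9 in UNG+/+ cells and 21.9 and 25.6 in AID-/- cells. C530 was therefore the highest member in UNG+/+ and in AID-/- cells, and its AID-/- level stood apart from the other 31 cytosines, whose AID-/- means lay between 0.427 and 6.33. How much of its level in the other genotypes comes from that background was not tested.

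C427, an AGCC, had 143, 150, 106 and 83.3 in UNG-/- cells, against 55.1, 53.9, 40.3 and 35.9 in UNG+/+ cells and 1.32 and 1.69 in AID-/- cells. G215, an AGCA, had 100.4, 120.4, 99.6 and 69.2 in UNG-/- cells, against 46.8, 33.1, 28.9 and 31.1 in UNG+/+ cells and 1.29 and 1.47 in AID-/- cells. Coverage lay between 112134 and 319306 reads at C427 and between 260690 and 682760 at G215, and neither showed an overlap between genotypes.

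At the low end, G264, a TGCG, had 13.9, 15.5, 11.1 and 10.2 in UNG-/- cells, against 4.99, 9.20, 5.60 and 6.42 in UNG+/+ cells and 2.51 and 2.81 in AID-/- cells. For G325, a TGCT, the means were 22.8 (UNG-/-), 11.05 (UNG+/+) and 5.17 (AID-/-). For C313, a TGCA, they were 24.1 (UNG-/-), 11.5 (UNG+/+) and 1.77 (AID-/-). The highest member mean was 14.4 times the lowest in UNG-/- cells and 10.3 times in UNG+/+ cells, so among cytosines that share the WGC core the range was wider than the 2.70 times between the UNG-/- and UNG+/+ means. Across the 32 members the log2 means of UNG-/- and UNG+/+ cells had a Pearson r of 0.896 and a Spearman rho of 0.861, as a description over positions that share their libraries.

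**Figure D1:**
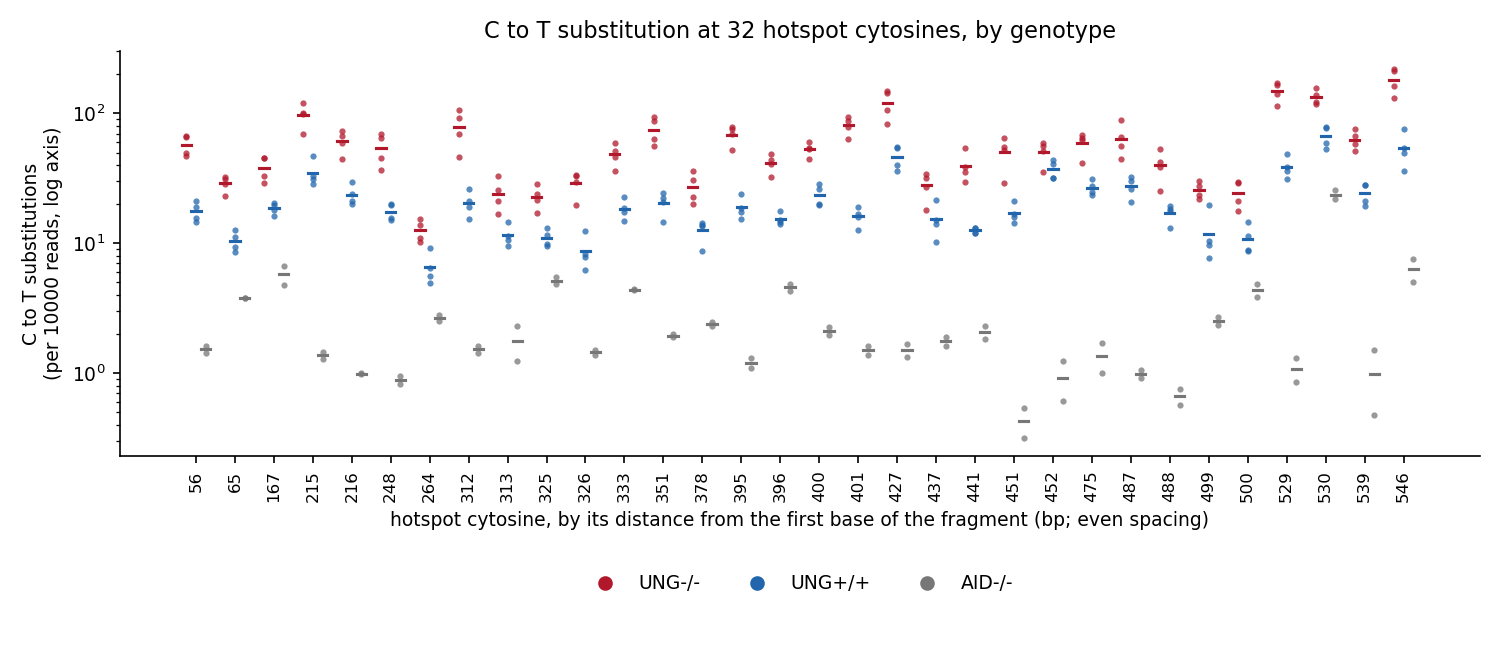
C to T level per 10000 reads (log axis) at the 32 WGC cytosines in fragment order, with 1 point per library and a bar at the group mean, for UNG-/- (4 libraries), UNG+/+ (4) and AID-/- (2). The UNG-/- points lie above the UNG+/+ points without overlap at 30 of 32 positions, and position 530 has the highest AID-/- points, at 21.9 and 25.6.

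The size of the difference in C to T between UNG-/- and UNG+/+ cells ranged widely. C401, an AGCA, had the largest: 87.1, 93.4, 79.3 and 63.7 in UNG-/- cells, against 19.1, 17.0, 12.6 and 16.0 in UNG+/+ cells, a log2 fold change of 2.33 ± 0.24 (SE, edgeR adjusted p = 3.81e-20). G264 had the smallest among called cytosines without overlap, 0.94 ± 0.26 (edgeR adjusted p = 0.000312). C452, an AGCA, was the cytosine not called, with 51.4, 59.5, 56.1 and 35.4 in UNG-/- cells, against 43.8, 40.5, 31.96 and 31.9 in UNG+/+ cells. Its libraries overlapped and its log2 fold change was 0.45 ± 0.23 (edgeR adjusted p = 0.0598). With the replicate number as a block it was called too, which made 32 of 32.

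C452 is one of 5 members within 3 bp of a polymorphic position, with C378, G451, G487 and C488. In UNG-/- replicates 1, 2 and 4 the polymorphic position nearest C452 and G451 had a second base in 3.55%, 3.42% and 2.02% of reads. The one nearest C378 had 14.4%, 14.1% and 11.7%. The one nearest G487 and C488 had 43.5%, 44.3% and 41.8%. The first base of C378 and of C488 and the base after G487 lie at polymorphic positions themselves, so on molecules with the other base these cytosines have a different motif. The AID-/- libraries had a different reference base from the UNG libraries at all 5 polymorphic positions. They carried a second base there in at most 2.34% of reads. Their background at C378, G487 and C488 therefore comes from a different motif. At these 5, UNG-/- replicate 3, the UNG-/- library without the second base, had a higher C to T level than the mean of UNG-/- replicates 1, 2 and 4, by 1.15 to 1.61 times. G487 had 89.7 in replicate 3 against a mean of 55.6 in the others, and C488 had 53.0 against 35.4. G451 had 65.0 in replicate 3 against 45.8, C378 35.8 against 24.5, and C452 56.1 against 48.8. At the other 27 cytosines the same ratio lay between 0.774 and 1.08, with a median of 0.932, and was above 1 at 6. The part that the second base plays in this difference was not tested.

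With UNG-/- replicate 3 as the only UNG-/- library, C to T was called higher over UNG+/+ at 31 of 32 and all substitutions at 23 of 32. A single library has no spread of its own, and the fit assumes that it varies like the other groups. Without replicate 3, the counts were 31 and 28.

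**Figure D2:**
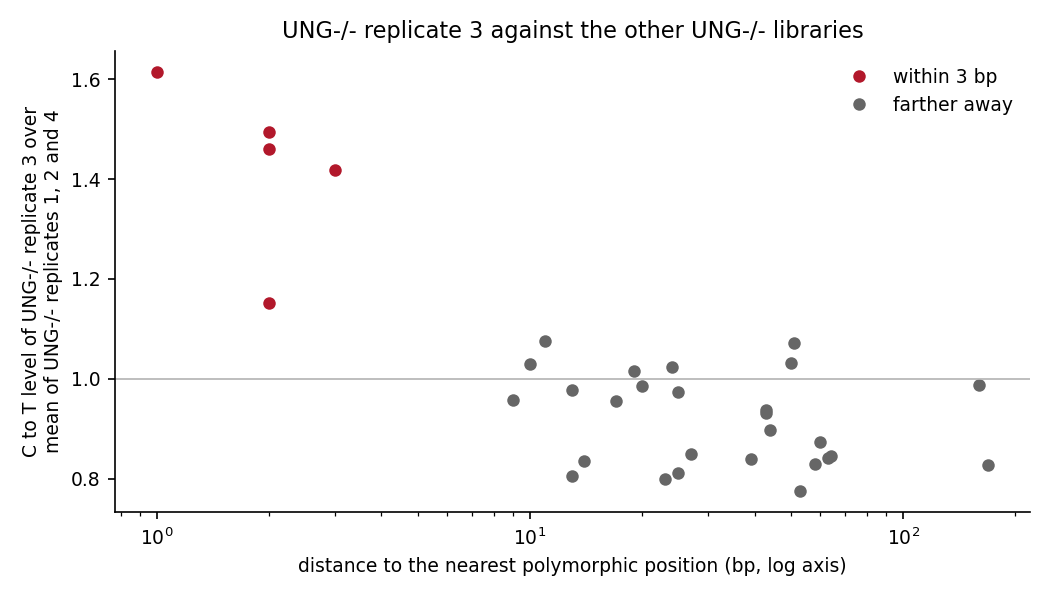
Ratio of the C to T level of UNG-/- replicate 3 to the mean of UNG-/- replicates 1, 2 and 4 at each of the 32 WGC cytosines, against the distance in bp (log axis) to the nearest polymorphic position. The 5 cytosines within 3 bp lie between 1.15 and 1.61, and the 27 farther away between 0.774 and 1.08.

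C to G, the transversion that needs uracil removal in the textbook scheme, was the rarest substitution and was concentrated at some members in UNG+/+ cells. The mean over the 32 cytosines was 0.414 ± 0.066 over the UNG-/- libraries and 1.98 ± 0.493 over the UNG+/+ libraries (SD, n = 4 each), against 0.311 and 0.413 in the AID-/- libraries. The UNG-/- libraries had 0.466, 0.459, 0.322 and 0.409 and the UNG+/+ libraries 2.66, 2.00, 1.66 and 1.58, with no overlap. UNG-/- over UNG+/+, 14 of the 26 tested cytosines were called lower by edgeR, where 28.3% of all 191 tested C:G positions were called lower. Of the 26, 13 passed the filter of 10 substituted reads in 2 libraries only with the UNG+/+ libraries, the group in which C to G is high, so the 14 are not a count over all members. Of these 13, 8 were called, and of the 13 that passed without them 6 were called (C216, G395, C396, G400, C401 and C452). G248, G441, G487, G500, G539 and C546 did not pass. With no filter, all 32 were tested and the same 14 were called lower, beside 23.1% of all 242 C:G positions. Within the libraries numbered 1 and 2 the test called 10 of 17. Within those numbered 3 and 4 it called 11 of 24, again without a share over all C:G positions. With UNG-/- replicate 3 as the only UNG-/- library, again with the spread of the other groups, it called 6.

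UNG+/+ over AID-/-, C to G was called higher at 13 of 26, where 23.6% of all tested C:G positions were called. Of these calls 9 were at cytosines that passed the filter only with the UNG+/+ libraries, and with no filter 14 of 32 were called, beside 19.0% of all C:G positions. This count rests on both AID-/- libraries: it was 7 without AID-/- replicate 1, 8 without AID-/- replicate 2, and 7 with the replicate number as a block, which uses the libraries numbered 1 and 2. UNG-/- over AID-/-, edgeR called C to G at 0 of 26 members, where 0.524% of all tested C:G positions were called. At an unadjusted p below 0.05 edgeR had 1 member, and DESeq2 and limma also called 0. The power was low here. On simulated counts the edgeR test of this comparison recovered 10% of 2-fold rises, 20% of falls to 0.5 times and 45% of 3-fold rises. The 0 calls therefore do not show that the levels are equal.

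G451, a TGCT, had the highest C to G level, with 0.425, 0.176, 0.282 and 0.230 in UNG-/- cells, against 12.4, 11.9, 10.5 and 12.7 in UNG+/+ cells and 0.32 and 0.34 in AID-/- cells. The UNG+/+ libraries lay above all UNG-/- and AID-/- libraries, while the UNG-/- and AID-/- libraries overlapped. G451 passed the filter only with the UNG+/+ libraries, and in the fit with no filter its log2 fold change UNG-/- over UNG+/+ was -5.37 ± 0.42 (SE, edgeR adjusted p = 5.46e-12). Its UNG+/+ mean was 11.9 for C to G beside 17.1 for C to T.

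C216, also a TGCT, had 0.423, 0.348, 0.465 and 0.539 in UNG-/- cells, against 8.99, 4.23, 5.27 and 4.81 in UNG+/+ cells and 0.56 and 0.83 in AID-/- cells. C488, a TGCT as well, had 0.254, 0 of 68763 reads (a limit of 0.436), 0.501 and 0.453 in UNG-/- cells, against 6.06, 7.03, 2.64 and 1.90 in UNG+/+ cells and 0 of 118200 reads (a limit of 0.254) and 0.19 in AID-/- cells. The UNG-/- and UNG+/+ libraries did not overlap at either cytosine. C216 passed the filter without the UNG+/+ libraries, and its log2 fold change UNG-/- over UNG+/+ was -3.69 ± 0.36 (SE, edgeR adjusted p = 3.15e-08). C488 passed only with them, and with no filter its log2 fold change was -3.61 ± 0.57 (SE, edgeR adjusted p = 4.04e-06).

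Outside TGCT, C530 had 1.36, 1.10, 0.742 and 1.10 in UNG-/- cells, against 16.1, 7.02, 8.51 and 2.16 in UNG+/+ cells and 0.57 and 1.49 in AID-/- cells. The spread among the UNG+/+ libraries was wide, and each UNG-/- value rests on 2 to 4 substituted reads. C546 did not pass the filter. Its UNG-/- libraries lay between 0 and 3.46, with a mean of 1.48, and overlapped the UNG+/+ libraries, which had 6.38, 5.39, 1.76 and 3.92. Both AID-/- libraries had 0 substituted reads, with limits of 3.03 and 1.90. With no filter, C546 was not called UNG-/- over UNG+/+ (edgeR adjusted p = 0.171). It was called higher UNG+/+ over AID-/- (edgeR adjusted p = 0.0195).

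**Figure D3:**
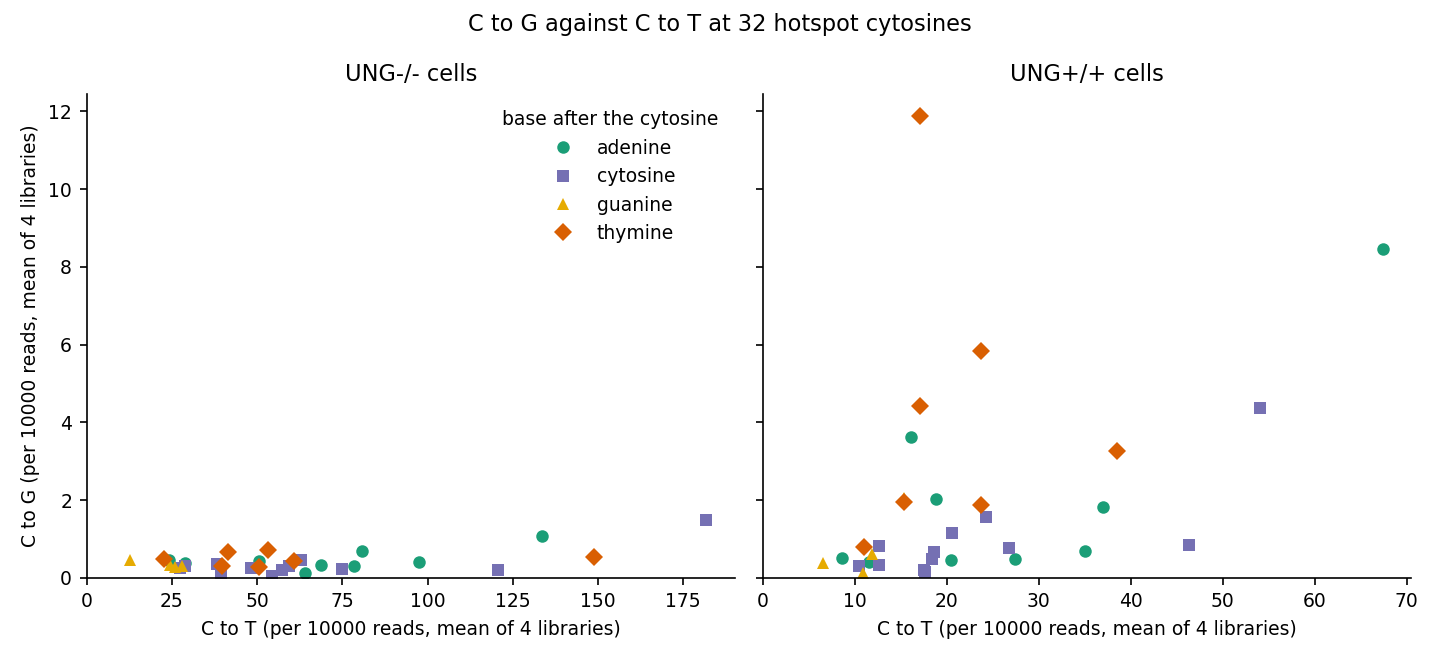
C to G level against C to T level per 10000 reads (means of 4 libraries) at the 32 WGC cytosines, in UNG-/- cells (left) and UNG+/+ cells (right), with the base after the cytosine as the symbol. C to G means stay at or below 1.48 in UNG-/- cells and reach 11.9 in UNG+/+ cells, where the highest point is a cytosine followed by thymine with a C to T mean of 17.1.

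The 7 TGCT cytosines as a group had a mean C to G level of 0.491 ± 0.127 over the UNG-/- libraries and 4.29 ± 0.903 over the UNG+/+ libraries (SD, n = 4 each), against 0.406 in AID-/- cells. At the other 25 WGC cytosines the UNG-/- libraries averaged 0.392 ± 0.068, the UNG+/+ libraries 1.33 ± 0.390 and the AID-/- libraries 0.349. Per library, the log2 ratio of TGCT to the others was 0.31 ± 0.35 in UNG-/- cells, 1.71 ± 0.21 in UNG+/+ cells (above 0 in 4 of 4) and 0.21 in AID-/- cells. With no filter, C to G was called lower in UNG-/- than in UNG+/+ cells at 6 of 7 TGCT cytosines, all but G325, and at 8 of the other 25. Among cytosines that passed the filter without the UNG+/+ libraries the counts were 3 of 4 and 3 of 9. The difference between these counts was not tested. C to T did not follow the same order: TGCT averaged 59.6 and 20.9 in UNG-/- and UNG+/+ cells, close to the 60.5 and 22.7 of the other 25.

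Within TGCT, the 4 cytosines followed by TT (C216, G451, C488 and G529), a split made after the values were seen, had C to G means of 0.392 ± 0.127 over the UNG-/- libraries and 6.34 ± 1.25 over the UNG+/+ libraries (SD, n = 4 each), against 0.324 in AID-/- cells. The remaining 3 (G325, C396 and G400) had 0.624 ± 0.173 and 1.54 ± 0.502, against 0.516. C to A followed the same split in UNG+/+ cells, with 10.3 ± 1.75 at the 4 and 3.78 ± 0.844 at the 3.

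By motif, UNG+/+ C to G averaged 2.51 ± 0.877 at AGCA, 1.07 ± 0.429 at AGCC and 1.09 ± 0.152 at AGCG (SD, n = 4). It averaged 0.422 ± 0.073 at TGCA, 0.476 ± 0.085 at TGCC and 0.492 ± 0.121 at TGCG, which have 2 cytosines each. The AID-/- libraries had 0.433 and 0.720 at AGCA, 0.133 and 0.103 at AGCC, and 0.334 and 0.256 at AGCG. They had 0.464 and 0.685 at TGCA, 0.296 and 0.341 at TGCC, and 0.532 and 0.604 at TGCG. The UNG+/+ mean was thus below both AID-/- libraries at TGCA, and likewise at TGCG. At the other motifs named here it was above both. The AGCA mean includes C530, and without C530 the mean over the 31 remaining cytosines was 1.77 ± 0.350 in UNG+/+ cells. Within a library TGCT was above AGCA in 4 of 4 UNG+/+ libraries, with a log2 ratio of 0.82 ± 0.45 (SD, n = 4).

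C to A was higher in UNG+/+ cells as well, but against a larger background and with less agreement between the UNG-/- libraries. The mean over the 32 was 1.69, 1.63, 3.11 and 2.25 in the UNG-/- libraries, against 5.10, 5.04, 5.23 and 4.49 in the UNG+/+ libraries and 2.86 and 3.27 in the AID-/- libraries. The UNG-/- libraries numbered 1, 2 and 4 thus lay below both AID-/- libraries, and replicate 3 lay between them. UNG-/- over UNG+/+, edgeR called 13 of 31 tested cytosines lower, where 20.3% of all 231 tested C:G positions were called lower. Of the 31, 3 (G529, C530 and C546) passed the filter only with the UNG+/+ libraries, and 11 of the other 28 were called. With no filter 14 of 32 were called, beside 20.7% of all C:G positions. The count was 8 without UNG-/- replicate 1, 8 without replicate 2 and 20 without replicate 3. With replicate 3 as the only UNG-/- library, whose spread is then taken from the other groups, it was 0. Within the libraries numbered 1 and 2 it was 14 of 29, and within those numbered 3 and 4 it was 2 of 30.

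C488 had the C to A values 1.65, 1.75, 3.84 and 1.81 in UNG-/- cells, against 19.1, 10.3, 10.1 and 9.76 in UNG+/+ cells and 3.30 and 4.22 in AID-/- cells. G451 had 0.71, 0.53, 2.18 and 1.21 in UNG-/- cells, against 13.8, 8.19, 9.33 and 9.75 in UNG+/+ cells and 2.34 and 2.37 in AID-/- cells. G451 had the lowest log2 fold change of the members, -3.06 ± 0.39 (SE, edgeR adjusted p = 8.65e-08).

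C427, outside TGCT, had 1.79, 1.04, 3.77 and 2.40 in UNG-/- cells, against 9.63, 13.2, 9.95 and 6.86 in UNG+/+ cells and 2.29 and 3.56 in AID-/- cells, with a log2 fold change of -2.10 ± 0.38 (SE, edgeR adjusted p = 3.33e-05). Its C to G level in UNG+/+ cells was low beside that, between 0.67 and 1.07. C452 had the highest AID-/- C to A level of the members, 7.28 and 8.99, which was above its mean of 4.94 in UNG-/- cells and near its 7.72 in UNG+/+ cells. UNG+/+ over AID-/-, C to A was called higher at 4 of 31 cytosines (C427, G451, C488 and G529), where 4.33% of all tested C:G positions were called. G529 passed the filter only with the UNG+/+ libraries, and with no filter the same 4 of 32 were called, beside 4.13% of all C:G positions. UNG-/- over AID-/-, edgeR called C to A at 0 of 31, where 0.0% of all tested C:G positions were called, with 2 members at an unadjusted p below 0.05, both lower, and DESeq2 and limma also called 0. On simulated counts this edgeR comparison recovered 35% of 2-fold rises, 25% of falls to 0.5 times and 90% of 3-fold rises. Smaller differences could thus go uncalled.

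As shares of all substitutions over the 32 cytosines, C to T made up 95.7% ± 1.48 over the UNG-/- libraries and 76.2% ± 1.65 over the UNG+/+ libraries (SD, n = 4 each), against 46.1% in AID-/- cells. C to G made up 0.671% ± 0.143 and 6.69% ± 0.827, against 5.66%, and C to A 3.60% ± 1.46 and 17.1% ± 2.06, against 48.2%. In UNG+/+ cells the TGCT cytosines had 64.0% ± 2.36 C to T, 13.0% ± 1.76 C to G and 22.9% ± 1.08 C to A. The AGCA cytosines had 83.4% ± 2.072, 6.87% ± 1.73 and 9.75% ± 1.07. The AGCC cytosines had 79.5% ± 1.73, 3.29% ± 0.884 and 17.2% ± 2.53, so they held less C to G and more C to A than AGCA. The AID-/- background had the same order, with 2.32% C to G and 52.9% C to A at AGCC and 6.91% and 39.0% at AGCA. In UNG-/- cells C to T made up between 95.7% and 96.7% in all 3 motifs.

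By first base, AGC cytosines had higher C to T levels than TGC cytosines. AGC averaged 68.6 ± 12.9 over the UNG-/- libraries and 25.7 ± 4.14 over the UNG+/+ libraries (SD, n = 4 each), against 3.19 in AID-/- cells. TGC averaged 48.1 ± 9.31 and 17.4 ± 2.08, against 2.55. The log2 ratio of AGC to TGC per library was 0.51 ± 0.03 in UNG-/- cells and 0.56 ± 0.13 in UNG+/+ cells, above 0 in all 8 of these libraries, and 0.32 in AID-/- cells. Without C530 it was 0.43 in UNG-/- and 0.42 in UNG+/+ cells. The order turned for C to G in UNG+/+ cells, where AGC averaged 1.60 ± 0.513 and TGC 2.52 ± 0.491, with a log2 ratio of -0.69 ± 0.27 that was below 0 in 4 of 4 libraries. The same ratio was -0.13 ± 0.38 in UNG-/- cells and -0.53 in AID-/- cells, below 0 in both AID-/- libraries, so the background has this order too. The 2 sets differ in the base after the cytosine, since T followed at 7 of 13 TGC and at 0 of 19 AGC positions.

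By the base after the cytosine, G stood apart in C to T. The 4 cytosines followed by G (G264, C437, C499 and G500) averaged 22.7 ± 4.57 over the UNG-/- libraries and 11.2 ± 2.35 over the UNG+/+ libraries (SD, n = 4 each), against 2.83 in AID-/- cells. The 9 followed by A averaged 69.7 ± 13.0 and 26.9 ± 4.62, against 3.83. The 12 followed by C averaged 66.2 ± 13.8 and 23.3 ± 3.55, against 2.75. The 7 followed by T averaged 59.6 ± 10.6 and 20.9 ± 2.02, against 2.15. The UNG-/- libraries of the G set, 17.5 to 26.7, lay below the lowest library of each other set, while A, C and T overlapped in both genotypes. The means of the 4 positions followed by G lay between 12.7 and 27.9 in UNG-/- cells, and single members of other sets, such as G325 and C313, were as low.

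**Figure D4:**
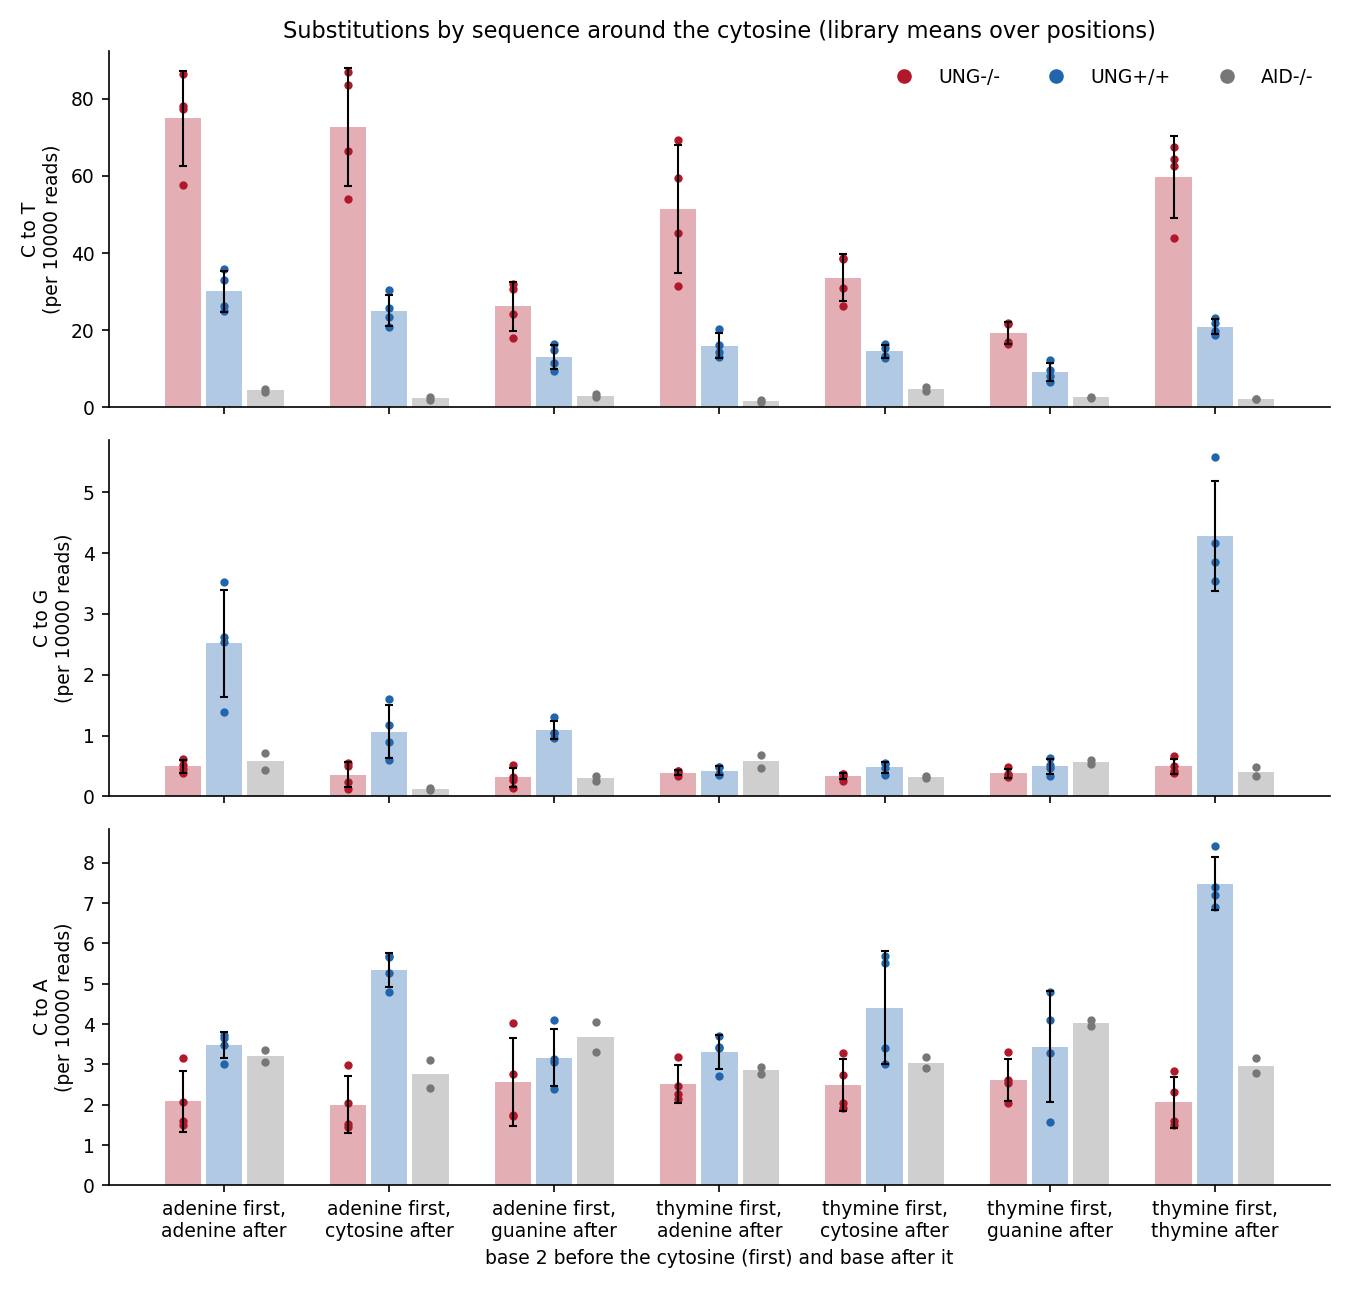
Mean C to T, C to G and C to A levels per 10000 reads for the 7 WGC motifs, named by the first base and the base after the cytosine, in UNG-/-, UNG+/+ and AID-/- cells. Points are libraries, bars their mean and error bars the SD of 4 libraries (none for the 2 AID-/- libraries). C to G and C to A in UNG+/+ cells are highest where thymine comes first and after, at 4.29 and 7.49.

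By strand, no stable difference in C to T was seen. At cytosines of the reference strand the UNG-/- libraries averaged 63.8, the UNG+/+ libraries 25.1 and the AID-/- libraries 3.86, and at those paired with a reference G 57.2 and 19.8, against 2.12. The log2 ratio of C to G of the reference was 0.16 ± 0.05 over the UNG-/- libraries and 0.33 ± 0.10 over the UNG+/+ libraries (SD, n = 4 each). It was -0.26 and -0.07 with the median over positions in place of the mean, and 0.04 and 0.15 without C530.

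The GC dinucleotides in which both cytosines are members allow a comparison between adjacent cytosines on opposite strands. In 7 of the 8 one cytosine lies in AGCA and its partner across the GC in TGCT. For C to T in UNG-/- cells, the AGCA cytosine was higher than its TGCT partner in all 4 libraries in 5 pairs (G215 with C216, C326 with G325, G395 with C396, C401 with G400 and G487 with C488). In UNG-/- cells G215 averaged 97.4 and C216 60.9, and in UNG+/+ cells G215 averaged 34.98 and C216 23.7. C452 and G451 both had a mean of 50.6 in UNG-/- cells and lay apart in UNG+/+ cells, at 37.0 and 17.1. Their coverage was not the same in the UNG-/- libraries with a second base, where C452 had 99522, 80202 and 118373 filtered reads in replicates 1, 2 and 4, beside 141223, 113492 and 173929 at G451. C401 and G400 changed places: in UNG-/- cells they had 80.9 and 53.2, with C401 higher in 4 of 4 libraries, and in UNG+/+ cells 16.2 and 23.7, with C401 higher in 0 of 4. C326 and G325 went from 28.96 and 22.8 to 8.68 and 11.05, with C326 higher in 1 of 4 UNG+/+ libraries. Their AID-/- means were 1.45 and 5.17. C530 and G529 turned the other way, from 133.6 and 148.7 (C530 higher in 1 of 4) to 67.4 and 38.5 (4 of 4).

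For C to G in UNG+/+ cells the order differed from pair to pair. The TGCT cytosine was higher in all 4 libraries at C216 over G215 (means 5.83 and 0.696), G451 over C452 (11.9 and 1.81) and C488 over G487 (4.41 and 0.491). The AGCA cytosine was higher in 3 of 4 libraries at C401 over G400 (3.61 and 1.87) and at C530 over G529 (8.46 and 3.27). At G395 and C396 the means were 2.02 and 1.95. C to A in UNG+/+ cells was higher at the TGCT cytosine in all 4 libraries in 6 of the 7 pairs, the exception being G325 over C326, with 3 of 4. In both AID-/- libraries the TGCT cytosine was higher at C216, C396, G400 and C488, so the background has this order there too. The AGCA cytosine was higher in both at C326 and C452. At C401 and G400 the means were 0.881 and 3.10 in AID-/- cells, beside 1.16 and 4.08 in UNG+/+ cells.

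The eighth dinucleotide, TGCA, has the same 4 bases on both strands, so its cytosines share the motif. G312 had 93.0, 105.9, 69.0 and 46.1 C to T in UNG-/- cells, against 21.1, 26.2, 15.4 and 19.1 in UNG+/+ cells and 1.44 and 1.62 in AID-/- cells. C313 had 25.6, 32.9, 21.2 and 16.9 in UNG-/- cells, against 11.4, 14.6, 10.6 and 9.52 in UNG+/+ cells and 1.25 and 2.29 in AID-/- cells. G312 was higher in all 8 UNG-/- and UNG+/+ libraries. Their windows, given above, share TGCA and differ around it.

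**Figure D5:**
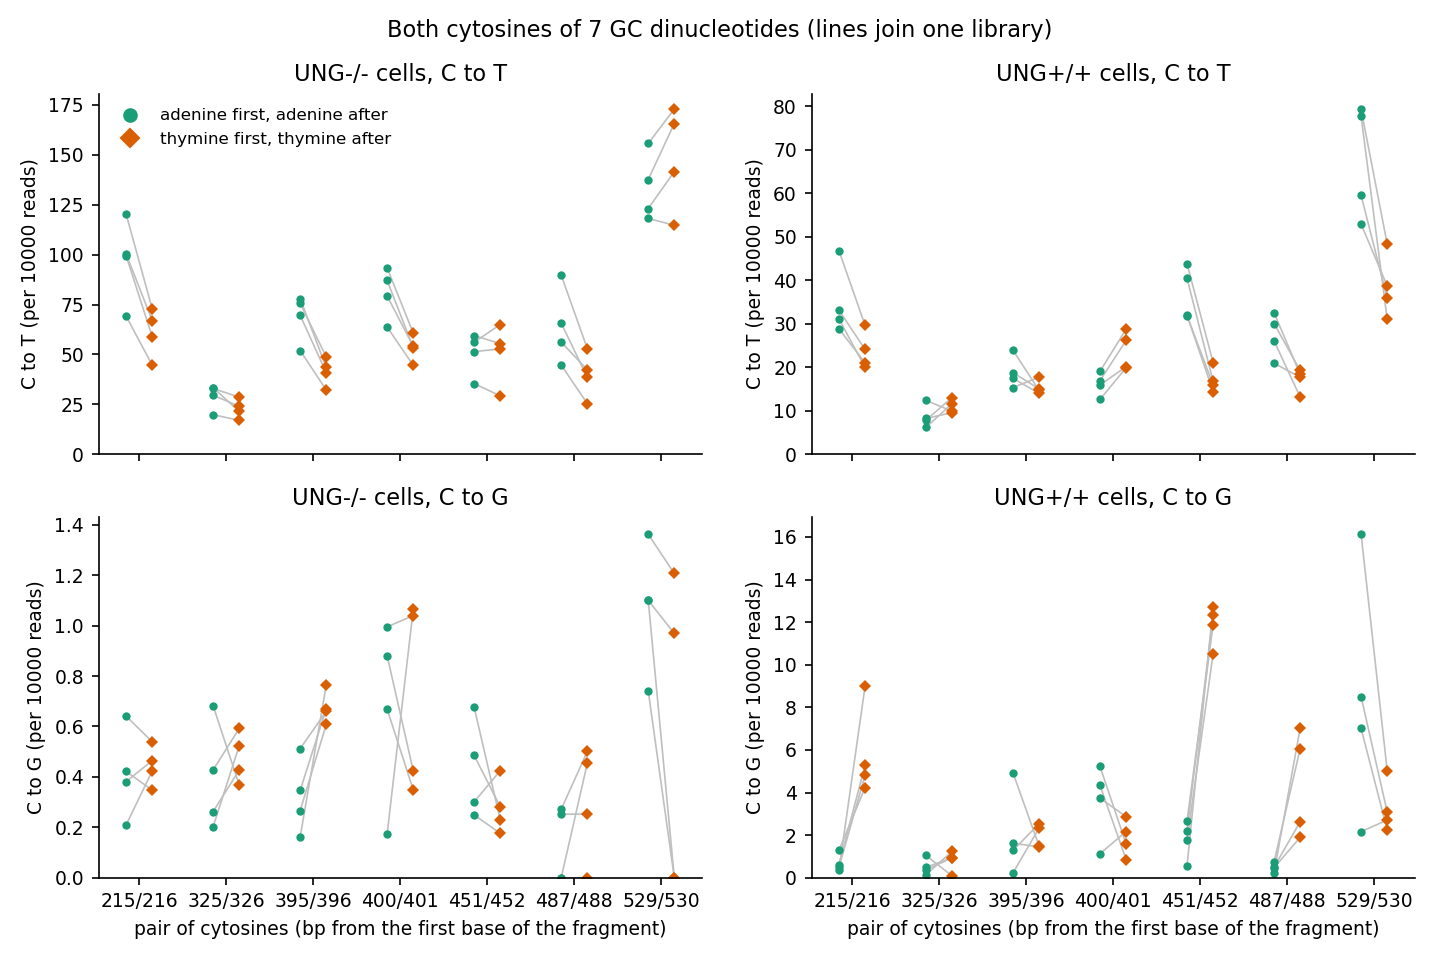
C to T (top) and C to G (bottom) levels per 10000 reads at both cytosines of the 7 GC dinucleotides with AGCA on one strand (circles) and TGCT on the other (diamonds), in UNG-/- cells (left) and UNG+/+ cells (right), with grey lines joining the values of 1 library. In UNG-/- cells the circles lie above the diamonds for C to T in all 4 libraries of 5 pairs, and in UNG+/+ cells the diamonds lie above for C to G in all 4 libraries at 215/216, 451/452 and 487/488.

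Beside the WGC cytosines, the 12 AGCT cytosines had mean C to T levels of 104.8 ± 23.4 over the UNG-/- libraries and 36.4 ± 4.71 over the UNG+/+ libraries (SD, n = 4 each), against 1.17 in AID-/- cells. The 30 WAC cytosines had 76.2 ± 16.8 and 16.0 ± 1.98, against 1.20. The WGC mean, 60.3 and 22.3, was below AGCT in both genotypes, and between AGCT and WAC in UNG+/+ cells only. The WGC background in AID-/- cells, 2.93, was 2.26 without C530 and remained above both. In UNG+/+ cells C to G averaged 8.04 ± 2.13 at AGCT and 3.15 ± 0.713 at WAC, beside 1.98 ± 0.493 at WGC and 4.29 ± 0.903 at TGCT. The share of C to G in UNG+/+ cells was 15.1% ± 2.78 at AGCT and 14.4% ± 1.40 at WAC. These were near the 13.0% ± 1.76 at TGCT and above the 4.63% ± 0.747 at the other 25 WGC cytosines. The 211 C:G positions that are not WGC, which include AGCT and WAC, had 12.9% ± 2.13. In AID-/- cells the shares were 9.38% at AGCT, 15.2% at WAC, 7.31% at TGCT and 5.27% at the other 25. The median log2 fold change of C to T UNG-/- over UNG+/+ was 1.39 at WGC, 1.67 at AGCT and 2.18 at WAC, and the difference between these classes was not tested.

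Toward the 3′ end, a 30-base stretch holds 4 members (G529, C530, G539 and C546, in capitals; G529 and C530 are the adjacent pair) and is given on the reference strand, positions 523 to 552:
Smu fragment: aggtaaGCaaagctggGcttgagCcaaaat

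The means of these 4 for C to T lay between 63.0 and 182 in UNG-/- cells, between 24.2 and 67.4 with UNG+/+, and between 0.988 and 23.7 in the AID-/- background. Their medians were 141 and 46.3, against 3.70. The 7 members in the first 300 positions had medians of 54.3 and 17.6, against 1.53. The 14 members at positions 301 to 450 had 44.8 and 15.8, against 1.86. All 11 members at positions 451 to 560, the last 4 among them, had 59.5 and 26.8, against 1.08. The highest UNG-/- member means were 97.4 in the first 300 positions and 121 at positions 301 to 450. Coverage falls over the same 3′ stretch, and the Pearson r between log2 C to T in UNG-/- cells and the log2 of the lowest coverage was -0.435 over the 32 positions, with a Spearman rho of -0.191. Position and coverage cannot be told apart here.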

How the data were processed

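Per the labels' protocols, the Smu fragment was amplified for 25 cycles with Pfu Ultra, sheared to 100 to 300 bp and made into libraries with 10 cycles. CASAVA 1.7, SAMtools 0.1.11 and Novoalign 2.07.04 were used, per the submitters' processing notes. Per the file headers, the deposited tables give for 560 positions the count of reads above Phred 20 and the count of reads with each substitution. The deposited fraction, per the file headers, divides the substituted count by the filtered reads, and recomputed values were equal within 1e-16. Coordinates are not printed, since the build is not given in the sources used here.

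Left out were the 5 positions 225, 376, 454, 455 and 486, polymorphic ones at which the tables of AID-/- and UNG libraries have different reference bases, and position 560, which left 554. The members and lists were chosen with earlier results of these data known. Named positions follow a rule: the 5 highest and 3 lowest in UNG-/- C to T, the 5 highest in UNG+/+ C to T and C to G, the largest and smallest fold change, any member not called, and pairs sharing a GC.

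Counts were tested with edgeR 4.0.16 (R 4.3.3; glmQLFit, glmQLFTest; log coverage as offset; all 10 libraries; a minimum of 10 substituted reads in 2 or more libraries; Benjamini-Hochberg over all C:G positions tested, threshold 0.05), checked on simulated counts. DESeq2 1.42.0, limma 3.58.1, TMM scaling, no filter, only the groups compared, replicate blocks, left-out libraries and quality subsets were alternatives. Deviations from group means correlated between same-numbered UNG-/- and UNG+/+ libraries at 0.495, 0.134, 0.259 and 0.324 (237 positions, a description). Different-numbered libraries within the sets 1 and 2 or 3 and 4 correlated as well, at 0.165 to 0.457, and across the sets at -0.531 to -0.129, so the number is not told apart from the set. The replicate block is therefore given as an alternative.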

Additional observations from a re-analysis of the deposited data

Results flagged for a closer look

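At C488, the TGCT cytosine beside a polymorphic position, 1 library stood apart from the other 3 of its genotype for C to A in both UNG genotypes. UNG-/- replicate 3 had 3.842 per 10000 reads, while the other UNG-/- libraries lay between 1.65 and 1.81. UNG+/+ replicate 1 had 19.14 per 10000 reads, while the other UNG+/+ libraries lay between 9.76 and 10.3. In each case the gap to the nearest library exceeded the 95% critical value of Dixon's test for 4 libraries. Chance flags about 1 in 20 groups, and 132 groups of 4 libraries were tested, so about 6.6 flags are due to chance, more than the 2 found. UNG-/- replicate 3 is the UNG-/- library without a second base at the polymorphic positions, whose part in this value was not tested.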

How the results depend on the processing

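TMM scaling of the substituted reads removes differences in total load by construction. With it, 11 WGC cytosines were called higher UNG-/- over UNG+/+ for all substitutions, 1 for C to T, 5 lower for C to A, and 21 higher for C to T over AID-/-. With UNG-/- replicate 3 as the only UNG-/- library, an alternative added after seeing the data, C to G was called lower at 6 and C to A at 0; the libraries numbered 3 and 4 alone gave 2 for C to A. Leaving out each library gave 8 to 20 calls for C to A UNG-/- over UNG+/+ and 7 to 14 for C to G UNG+/+ over AID-/-. With the replicate block, C to G UNG+/+ over AID-/- fell to 7 calls, C to T UNG-/- over UNG+/+ gave 32, C to A 19 in place of 13, and no other count of calls moved by over 1.5 times. The log2 ratio of the C to G means, UNG-/- over UNG+/+, was -2.24 in the main setting, -1.37 with medians over positions and -1.87 without positions within 3 bp of a left-out one. The C to T share differed by 19.6 percentage points, by 16.8 with AID-/- subtracted and by 17.4 without those nearby positions. For AGC over TGC, UNG-/- cells had log2 ratios of 0.57 with pooled reads, 0.56 with medians, 0.58 without the nearby positions and 0.43 without C530, and UNG+/+ cells had 0.23 with medians and 0.42 without C530. For C over G of the reference, UNG-/- cells had -0.062 with pooled reads and -0.26 with medians, both reversed, 0.29 without the nearby positions and 0.038 without C530. UNG+/+ cells had 0.12 with pooled reads, -0.071 with medians, which is reversed, and 0.15 without C530. The cause of these changes was not tested. Under the other settings, 203 values that answer a comparison kept their direction and stayed within 1.5 times (counts) or 1 SD (levels) of the value reported, and of single motif levels 79 did and 9 did not. For C to G, 6 of 32 cytosines had too few substituted reads to pass the filter.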

Other observations

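WGC cytosines whose partner cytosine across the GC is also a member had more C to G in UNG+/+ cells than those whose partner is not. The 16 with a member as partner averaged 0.479 ± 0.053 over the UNG-/- libraries and 3.03 ± 0.720 over the UNG+/+ libraries (SD, n = 4 each), against 0.502 in AID-/- cells. The other 16 averaged 0.349 ± 0.129 and 0.924 ± 0.293, against 0.221. The log2 ratio per library was 0.53 ± 0.59 in UNG-/- cells, above 0 in 3 of 4, and 1.74 ± 0.29 in UNG+/+ cells, above 0 in 4 of 4, and it was 1.15 in AID-/- cells. The partner was a member at every cytosine followed by A or T, among them all 7 TGCT, and at none followed by C or G. Partner and base after the cytosine therefore cannot be told apart.

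For C to T the same split gave 65.3 ± 11.9 and 24.3 ± 3.41 over the UNG-/- and the UNG+/+ libraries where the partner is a member, against 55.3 ± 11.5 and 20.3 ± 3.14 where it is not. The AID-/- means were 3.09 and 2.77. Across the 32 cytosines, C to T in UNG-/- cells and C to G in UNG+/+ cells had a Pearson r of 0.357 and a Spearman rho of 0.437, as a description over positions that share libraries and depth.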
